A study of Mus musculus with 6 samples.

Results

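Cluster 5 is the number that the authors' cell table gives to 339 of its 16822 hematopoietic stem and progenitor cells (HSPCs) from mouse bone marrow. Its members are the table's cells with that cluster number, matched to the deposited matrices by library and barcode. HSPCs were sorted as Lin- cKit+ Sca1+ cells from C57BL/6J (CD45.1) mice, 8 to 12 weeks old, sacrificed at day 21 after injection of PBS or of 1000000 C1498 cells. C1498 is a mouse line of acute myeloid leukemia (AML) that carries CD45.2, and the recipients were not conditioned, so the sorted cells are the healthy cells of the host. The series holds 3 PBS and 3 AML libraries, and the cell table has 0 cells of AML replicate 2, so cluster 5 was described in 3 PBS and 2 AML libraries. PBS replicates 1, 2 and 3 gave it 150, 22 and 98 cells, and 12 and 57 came from AML replicates 1 and 3. Nothing in the labels says whether a library is 1 mouse or a pool, so p-values refer to libraries and not to mice.

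The cells of cluster 5 carry 1470644 unique molecular identifiers (UMIs), from 31768 in AML replicate 1 to 538636 in PBS replicate 1. AML replicate 1 stood apart from the other libraries. Its cells of clusters 0 to 4 had nearly equal median UMIs in the G1 (2269), S (2409) and G2M (2407.5) calls of the cell table, while in the other 4 libraries the G2M cells were far deeper than the G1 cells, with 6795 against 3192 UMIs in PBS replicate 1. Its G1 cells had 198 CPM (UMIs of a gene scaled to a library sum of 1000000) of Top2a, against 15.9 to 33.7 in the other libraries. Statements on counts of libraries therefore refer, where said, to the 4 libraries with at least 20 cluster 5 cells, which leaves AML replicate 1 out. Libraries also share cell barcodes: 592 cells of the table, 15 of them in cluster 5 and 11 of these in PBS replicate 2, have a barcode that also occurs in the matrix of another library of the table. With the matrix of AML replicate 2 counted as well, these are 5496 cells and 62 in cluster 5, and they include all 934 cells, and all 22 of cluster 5, of PBS replicate 2. Without them 148, 79, 7 and 43 cluster 5 cells remained in PBS replicates 1 and 3 and AML replicates 1 and 3, and the main results are also given for these unshared cells, an alternative chosen after seeing the data. The sums by class and the likeness to other clusters were not repeated in this way.

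As background, a dividing cell builds up the RNAs of mitotic regulators through G2, degrades many of them while it divides, and starts the next G1 with about the RNA content of a single cell. Replication-dependent histone mRNAs belong to S phase, whereas a few histone genes, H1f0 and some H2B genes among them, also give polyadenylated mRNAs outside S phase. Cell cycle phase in the table is a score call, and a cell that such calls name G1 commonly has neither a high S nor a high G2M score. The sources used here do not say how the table's scores and calls were made.

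Hist1h2bc, Ccnb2 and Cenpa led cluster 5. Leading genes were ranked by the mean over libraries of the log2 ratio of summed CPM + 1 in cluster 5 to that in all other cells of the same library, and this ranking is a description with no test, since the clusters were made from the same values. A gene needed at least 50 CPM as the mean over libraries and the same sign in each of the 5. The highest was Hist1h2bc, an H2B histone gene, with a mean log2 ratio of 3.13 ± 0.60 (SD, n = 5 libraries). Ccnb2 (cyclin B2, an activator of the mitotic kinase) followed with 2.16 ± 0.26, and Cenpa (the histone H3 variant of centromeres) with 1.93 ± 0.12. Ptms, which encodes parathymosin, a small acidic nuclear protein, had 1.87 ± 0.22. Among the next 11 were 3 genes of linker histones, Hist1h1c (1.70 ± 0.36), H1f0 (1.53 ± 0.33) and H1fx (1.35 ± 0.41). Knstrn, which encodes a spindle and kinetochore protein, had 1.35 ± 0.66. The others were the tetraspanin Cd9 (1.57), the cytochrome c oxidase subunit Cox6b2 (1.55), the antisense transcript 2810001G20Rik (1.41), the carbonic anhydrase Car2 (1.37), the stem cell transcription factor Gata2 (1.32), the cyclin-dependent kinase 4 partner Sertad1 (1.30) and the corepressor Cir1 (1.27). The next gene after these 15 was Tal1 at 1.23, so the end of the list marks no gap. Gata2 owed its place to AML replicate 1, where its log2 ratio was 2.93 against 0.82 to 1.08 in the other libraries. With cells thinned to 2000 UMIs 8 of the 15 stayed in the leading 15, Hist1h2bc, Ccnb2, Cenpa and Ptms first among them, while Hist1h1c dropped to 0.65, Cd9 to 0.38 and Sertad1 to -0.13. In the unshared cells 7 of the 15 stayed (Hist1h2bc, Ccnb2, Cenpa, Ptms, Hist1h1c, Cd9 and H1fx). There Hist1h2bc had 3.05, Ccnb2 2.99 and Cenpa 2.54, while Cox6b2 had 0.21, H1f0 0.0084 and Sertad1 -0.20, as means over 4 libraries in which AML replicate 1 counts with 7 cells.

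Promoter sequences of 2 mitotic genes that led cluster 5 and of 2 that were low in it are shown side by side, since all 4 belong to the same G2M gene set. Each is the 120 bases before the RefSeq transcript start on the gene's strand (GRCm38.p6), and capitals mark the CHR core (TTTGAA, or TTCAAA on the other strand) and the CCAAT box (CCAAT, or ATTGG on the other strand). The windows are chr9:70421555-70421674 (minus strand), chr5:30666766-30666885 (plus), chr2:164769809-164769928 (plus) and chr10:69352913-69353032 (minus).
Ccnb2: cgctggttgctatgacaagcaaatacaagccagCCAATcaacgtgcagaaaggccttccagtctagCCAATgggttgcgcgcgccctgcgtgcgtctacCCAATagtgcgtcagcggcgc
Cenpa: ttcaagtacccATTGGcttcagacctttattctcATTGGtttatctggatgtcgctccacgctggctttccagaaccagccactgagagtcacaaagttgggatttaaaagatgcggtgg
Ube2c: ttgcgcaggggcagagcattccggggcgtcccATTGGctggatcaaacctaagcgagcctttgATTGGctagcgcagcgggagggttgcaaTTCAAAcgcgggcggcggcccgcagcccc
Cdk1: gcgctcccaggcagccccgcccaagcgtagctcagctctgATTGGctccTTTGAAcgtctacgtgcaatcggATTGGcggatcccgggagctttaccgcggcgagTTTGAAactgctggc
In these stretches the CCAAT box is in all 4 and the CHR core in Ube2c and Cdk1. Over windows from 250 bases before to 50 after the start, all 4 genes had both motifs. The CHR core was in 65.4% of 52 windows of the G2M gene set and in 17.9% of all 32851 windows, and the CCAAT box in 75.0% and 37.4%. Of the 15 leading genes, 11 had an entry, with 12 windows, of which 16.7% held the CHR core and 33.3% the CCAAT box, close to the shares of all windows. Hist1h2bc, Hist1h1c, H1fx and Car2 had none.

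Hist1h2bc (ENSMUSG00000018102, chr13:23684199-23692908, plus strand, GRCm38) reached 1071, 848 and 1096 CPM in the cluster 5 cells of PBS replicates 1, 2 and 3, and 409 and 1007 in those of AML replicates 1 and 3. All other cells of the same libraries held 87.4 to 104 CPM, so that the 2 ranges do not meet. With each cell thinned to 2000 UMIs, 73.2% of 336 cluster 5 cells held a Hist1h2bc UMI against 13.6% of 16281 others (87.0% and 25.2% before thinning). H2B genes are close in sequence, and the sources used here do not say how reads that fit several of them were assigned.

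Ccnb2 (ENSMUSG00000032218, chr9:70407692-70421547, minus strand) stood at 676, 649 and 553 CPM in PBS and at 472 and 699 in AML. Cenpa (ENSMUSG00000029177, chr5:30666777-30674830, plus strand) reached 724, 621 and 641 CPM in PBS replicates 1 to 3, with 567 and 625 in AML. In both genes every cluster 5 sum lay above every sum of the other cells. Ptms (ENSMUSG00000030122, chr6:124913681-124920103, minus strand) held 197, 246 and 167 CPM in PBS and 157 and 159 in AML, against 32.9 to 76.8 in the other cells.

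**Figure D1:**
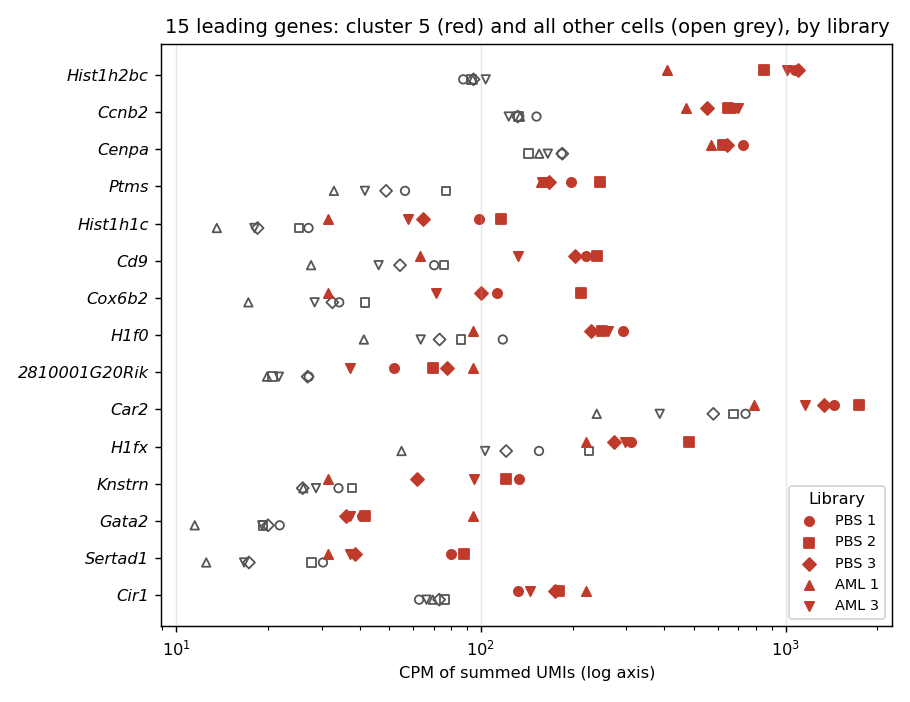
CPM of summed UMIs (x axis, log scale) of the 15 leading genes (y axis) in cluster 5 (red) and in all other cells (open grey), with 1 symbol per library. In Hist1h2bc the cluster 5 sums, from 409 to 1096 CPM, are separate from those of the other cells, and AML replicate 1 is the lowest of the 5 in that gene.

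At the low end, 7 of the 10 lowest genes (Jchain, Igkc, Iglc3, Iglc1, Mzb1, Iglc2 and Ighm) encode immunoglobulin chains or proteins of antibody-secreting cells. Their level in the other cells came from elsewhere in the table: G1 cells of clusters 0 to 4 held 13.2 CPM of Jchain and 105 of Igkc, against 896 and 9393 over all other cells. Igkc turned to a log2 ratio of 0.22 against the G2M cells, and Iglc2 to 0.017 against the G1 cells. The other 3 were Tk1, thymidine kinase of S phase (5.29 CPM in cluster 5, 203 in S cells of clusters 0 to 4), Ly86, a lipopolysaccharide receptor partner of myeloid and lymphoid cells (12.6 against 88.3 CPM, with 0 UMIs in the cluster 5 cells of all libraries but AML replicate 1), and the protease inhibitor Slpi (1.56 against 55.7 CPM). Over all 5715 genes with at least 20 CPM over all cells of the table, 21.0% were higher and 20.2% lower in cluster 5 in all 4 libraries with at least 20 of its cells.

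Cluster 5 was mixed in class and in phase. The authors' module scores named 107 of its cells MPP-4, 93 HSC, 89 MPP-2 and 50 MPP-3, which is 31.6%, 27.4%, 26.3% and 14.7% (95% Clopper-Pearson intervals 26.6 to 36.8%, 22.8 to 32.5%, 21.6 to 31.3% and 11.15 to 19.0%), and these intervals cover counting error only. All other cells were 38.6% MPP-4, 18.6% HSC, 28.8% MPP-2 and 14.1% MPP-3. By library the order differed: MPP-4 was lower in cluster 5 than in the other cells in the 3 PBS libraries (27.3 to 30% against 36.9 to 43.9%) and higher in AML replicates 1 (25.0% against 16.7%) and 3 (42.1% against 37.4%), and MPP-3 was higher in PBS replicate 1 (18.7% against 11.5%) and lower in PBS replicate 3 (4.08% against 9.72%). The HSC share of cluster 5 was above that of the other cells in all 5 libraries, from 8.33% against 3.23% in AML replicate 1 to 36.4% against 23.6% in PBS replicate 2. The 277 unshared cluster 5 cells were 31.8% MPP-4, 27.4% HSC, 24.9% MPP-2 and 15.9% MPP-3, and the unshared other cells 44.6%, 23.6%, 19.8% and 12.1%, so that the pooled MPP-2 share turned from lower to higher. In 59.0% of cluster 5 cells the highest module score was within 0.05 of the next, compared with 43.6% of the other cells.

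S phase was nearly empty in cluster 5, with 8 cells (2.36%, interval 1.02 to 4.60%) against 25.6% of the other cells. PBS replicates 1 and 2 had 0 S cells among 150 and 22, which allows shares of up to 2.43% and 15.4% (exact upper bounds), and 3 of the 8 came from the 12 cells of AML replicate 1. G2M was called in 181 cells (53.4%) and G1 in 150 (44.2%), against 21.2% and 53.2% of the other cells. In AML replicate 1 both directions turned, with G2M in 41.7% of cluster 5 against 52.6% of its other cells and G1 in 33.3% against 14.4%. Both calls occurred in every library, with G2M shares from 41.7% (AML replicate 1) to 58.7% (PBS replicate 1). The G2M call went with MPP-2, in 72 of 89 cells, and the G1 call was more frequent in HSC (58 of 93) and MPP-4 (60 of 107). G2M, G1 and S made up 54.5%, 44.4% and 1.08% of the unshared cells of cluster 5, against 12.6%, 66.7% and 20.7% of the unshared other cells.

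The leading genes were high in each class, which is a description, since they were ranked on these same cells. Within each class, with libraries summed, all 15 leading genes were higher in cluster 5 than in the other cells of that class, with median log2 ratios of 2.00 for MPP-3, 1.94 for MPP-4, 1.47 for MPP-2 and 1.45 for HSC. The lowest ratios, in the same order of classes, were 0.63, 0.98, 0.67 and 0.31. Hist1h2bc held 1134 CPM in the HSC of cluster 5 against 85.2 in other HSC, 694 against 74.3 in MPP-2 cells, 902 against 87.0 in MPP-3 cells, and 1281 against 126 in MPP-4 cells. Ccnb2 held 507 CPM in cluster 5 HSC against 20.8 in other HSC, and 776 against 251 in MPP-2. The sums of class markers were lower in cluster 5 than in other cells of the same class for HSC, MPP-3 and MPP-4. Cluster 5 MPP-3 cells held 1681 CPM over 12 granulocyte and monocyte markers, where the other MPP-3 cells held 3996, and cluster 5 MPP-4 cells held 1994 CPM over 12 lymphoid progenitor markers, where the other MPP-4 cells held 3394. MPP-3 cells held 1765 CPM of the lymphoid list in cluster 5 and 10620 outside it, so that outside the cluster this list was higher in MPP-3 than in MPP-4 cells. The 15 HSC markers summed to 1565 CPM in cluster 5 HSC and 1984.5 in other HSC. MPP-2 was the exception, with 713 CPM over 11 megakaryocyte markers in cluster 5 and 592 in other MPP-2 cells, and that list holds the leading gene Cd9. The megakaryocyte list was higher in cluster 5 in the other classes too: HSC (643 against 525 CPM), MPP-3 (473 against 253) and MPP-4 (398 against 299). The HSC list was higher in cluster 5 in MPP-2 (862 against 624), MPP-3 (838 against 537) and MPP-4 (1050 against 912).

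Markers of lymphoid and myeloid progenitors, among other lists, stood low. Of 12 lymphoid progenitor markers, 9 were measured (at least 20 CPM), and 7 of the 9 were lower in cluster 5 than in the other cells in all 4 libraries, with 0 higher. Over all measured genes 20.2% were lower in this way, the share that belongs beside each such count in this paragraph. Dntt, the terminal transferase of early lymphoid cells, held 48.3, 23.2 and 84.9 CPM in PBS and 94.4 and 84.5 in AML, against 222 to 306 in G1 cells of clusters 0 to 4. Of 12 granulocyte and monocyte markers, 7 were measured and 6 were lower in all 4. Against G1 cells of clusters 0 to 4 only 3 of the 7 were lower in all 4 libraries, with a median log2 ratio of -0.49. In that comparison 21.1% of all measured genes were lower. Elane, the neutrophil elastase gene, held 3.38 to 12.9 CPM in those 4 libraries and 63.0, from a sum of 31768 UMIs, in AML replicate 1. HSC markers did not move together: of 6 measured, Hlf, Meis1 and Txnip were higher in all 4 libraries and Mecom lower in all 4. Their direction turned with the comparison, from a median log2 ratio of 0.42 to all other cells to -0.20 against G1 cells of clusters 0 to 4. Against those G1 cells 0 of the 6 were higher and 2 lower in all 4. Against G2M cells 5 were higher and 0 lower, where 22.7% of all measured genes were higher. Of 14 erythroid markers 6 were measured, with 4 lower in all 4 libraries, Car2 higher and a median log2 ratio of -3.53 to all other cells, which was -1.93 against G1 cells and -0.21 against G2M cells of clusters 0 to 4, and of 4 measured markers of conventional dendritic cells 3 were lower, with a median of -1.92. The medians to all other cells were -0.62 for the lymphoid progenitor markers and -1.25 for the granulocyte and monocyte markers. No list of markers of another cell type had a median log2 ratio above 1, and plasma cell markers had a median of -5.48. The defining markers of plasma cells, Jchain and Mzb1, summed to 23 and 1 UMIs in the 339 cells. Among unshared cells, 8 of the 9 lymphoid and 4 of the 7 granulocyte and monocyte markers were lower than in the other cells in the 3 libraries that kept at least 20 cells, as were 26.6% of all measured genes. The cluster was given no cell type name beyond the authors' classes.

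Cluster 5 was set against cells of clusters 0 to 4 by the phase that the table calls, and its G2M genes lay between the G1 and the G2M cells for the most part. Seurat's list has 54 G2M genes, of which 45 were measured, and 36 of the 45 were higher in cluster 5 than in G1 cells of clusters 0 to 4 in all 4 libraries and 0 lower. Over all 5715 measured genes 18.4% were higher and 21.1% lower in that comparison. Phase scores are commonly computed from genes of this kind, so the contrast is a description. Against G2M cells, 39 of the 45 were lower in all 4 libraries, with a median log2 ratio of -1.05, and Ccnb2 and Cenpa were the 2 that were higher in all 4. The mean over the 5 libraries was 610 CPM in cluster 5 and 375 in G2M cells for Ccnb2, and 636 and 462 for Cenpa, while G1 cells held 29.0 and 40.2. Across all measured genes 22.7% were higher and 20.3% lower than in G2M cells in all 4. With unshared cells only, 39 of the 45 were above G1 cells and 42 below G2M cells in the 3 libraries kept, and Ccnb2 and Cenpa were again above them, while 22.8% of all measured genes were above G1 cells and 23.1% below G2M cells.

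The distance to the G2M level differed between genes, and it was short for some. Tpx2, a spindle assembly factor, held 84.9 to 130 CPM in the 4 libraries against 115 to 159 in G2M cells and 0.949 to 3.55 in G1 cells. Cdc20, an activator of the anaphase-promoting complex, had a mean log2 ratio of -0.39 to G2M cells and 3.74 to G1 cells, and Cenpe, a kinetochore motor, -0.29 and 3.29. Hmgb2, a chromatin protein of dividing cells, had -0.40 and 2.81. These cluster 5 sums mix cells called G1 and G2M. Its cells called G2M alone held 136 to 205 CPM of Tpx2, above the G2M cells of clusters 0 to 4 in each of the 4 libraries. For Hmgb2 (1909 to 2968 against 1788.5 to 3008 CPM), Cdc20 (65.5 to 189 against 69.7 to 125) and Cenpe (85.1 to 218 against 93.4 to 121) the ranges overlapped.

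The low end of the same list was far below G2M cells. Ube2c, the ubiquitin-conjugating enzyme of the anaphase-promoting complex, held 74.3, 51.0, 48.9 and 74.3 CPM in PBS replicates 1, 2 and 3 and AML replicate 3, against 817, 912, 757 and 594 in their G2M cells. Cdk1, the mitotic kinase, held 16.9 to 48.3 CPM against 286 to 355. Top2a, the topoisomerase that untangles sister chromatids, held 50.7 to 97.8 CPM against 595 to 678. Aurkb, the kinase of the chromosomal passenger complex, was the lowest measured gene of the list at -3.99 (3.38 to 9.27 against 62.0 to 133 CPM). Cluster 5 cells called G2M were also below in these libraries, with 70.9 to 116 CPM of Ube2c and 24.7 to 73.3 of Cdk1. They held 80.3 to 175 CPM of Top2a and 6.11 to 17.0 of Aurkb. AML replicate 1 differed here, with 630 CPM of Top2a in its 12 cluster 5 cells and 1052 in its G2M cells. The list thus ran from Ccnb2, above the G2M level, to Aurkb, whose level in G1 cells was 0.921 to 2.27 CPM.

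**Figure D2:**
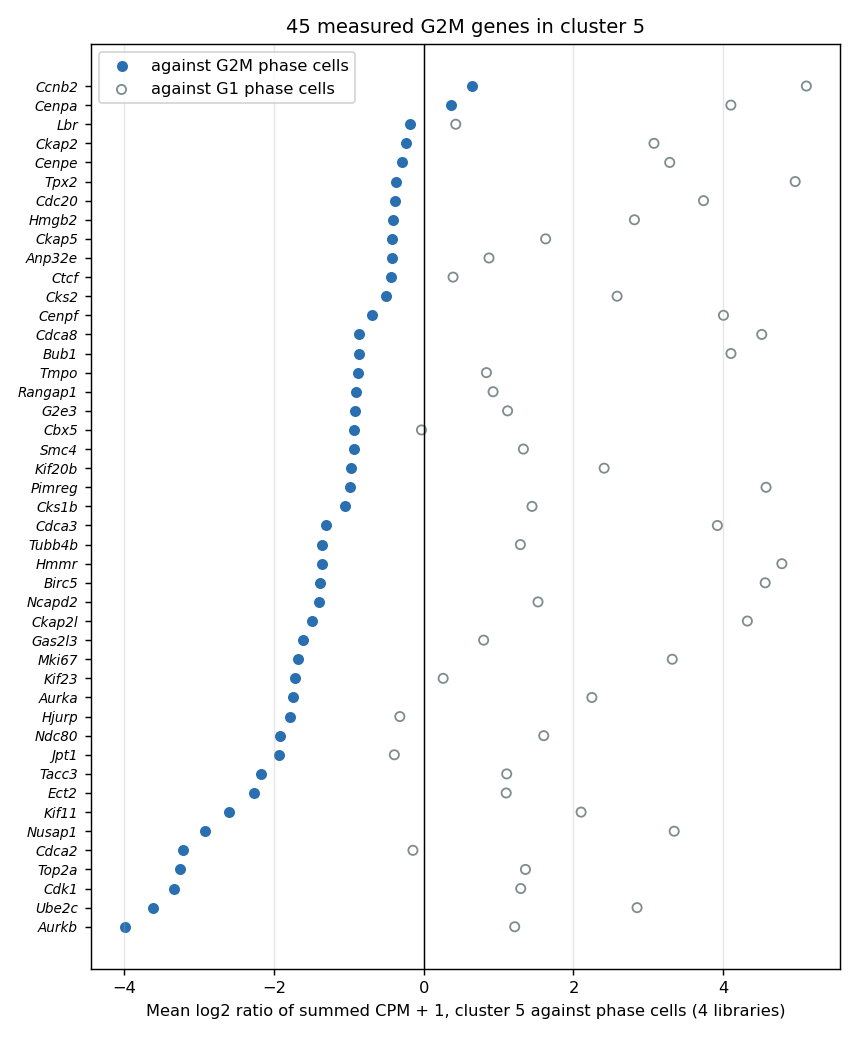
Mean log2 ratio of summed CPM + 1 (x axis) in cluster 5 to the G2M cells (blue) and to the G1 cells (open grey) of clusters 0 to 4, over the 4 libraries with at least 20 cluster 5 cells, for the 45 measured G2M genes (y axis). Ccnb2 (0.64) and Cenpa (0.36) lie above the G2M level, and Cdk1 (-3.34), Ube2c (-3.62) and Aurkb (-3.99) are at the bottom.

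S phase genes were low. Of 43 S genes, 38 were measured and 33 were lower in cluster 5 than in all other cells in all 4 libraries, with 0 higher and a median of -1.22, where 20.2% of all measured genes were lower. Rrm2, a subunit of ribonucleotide reductase, had a mean log2 ratio of -3.91, and Tyms, thymidylate synthase, -3.02. Against G1 cells the S genes were near even, with 7 higher, 6 lower and a median of -0.14. Of the 38, 29 were lower than in all other cells in the 3 libraries kept when only unshared cells were summed, beside 26.6% of all measured genes. Of 11 histone genes fixed as a replication group, 8 were measured, and 6 of the 8 were lower than in other cells in all 4 libraries, while 5 of the 8 were higher than in G1 cells. Hist1h1b, a replication-dependent H1 gene, held 92.8, 27.8 and 56.6 CPM in PBS and 31.5 and 40.6 in AML, against 143 to 273 in S cells. The 1 member that was higher in all 4, H2afz, is a replacement variant and not a replication-dependent gene, with 3171 to 3878 CPM in the 4 libraries against 895 to 1361 in G1 cells. Histone genes thus lay at both ends, with Hist1h2bc, Hist1h1c, H1f0 and H1fx above the other cells and 6 of the 8 measured members of this group below them.

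The G2M and G1 calls inside cluster 5 differed in several leading genes. Cells called G2M held 931, 859, 813 and 859 CPM of Ccnb2 in PBS replicates 1, 2 and 3 and AML replicate 3, and cells called G1 held 279, 398, 329 and 531. Cenpa went the same way, with 842 to 1060 CPM against 204 to 357. Both genes belong to Seurat's G2M list, and a score made from that list would set this direction, but whether the table's score used it is not stated. Hist1h2bc, which is in neither of Seurat's phase lists, went the other way, with 1101 to 1572 CPM in cells called G1 and 638 to 877 in cells called G2M, and the ranges of the 4 libraries do not overlap. H1f0 held 306 to 446 CPM in cells called G1 and 92.7 to 217 in cells called G2M. In G1 cells of clusters 0 to 4 the same libraries held 127 to 151.5 CPM of Hist1h2bc. In unshared cells Hist1h2bc held 1360 to 1681 CPM in cells called G1 and 748 to 1143 in cells called G2M in 3 libraries, and H1f0 423 to 465 and 88.1 to 217. H1fx and Hist1h1c overlapped between the calls, with 312 to 459 CPM of H1fx in cells called G1 against 240 to 502 in cells called G2M, and 71.3 to 114 against 37.1 to 153 CPM of Hist1h1c, and both were higher in G2M cells of PBS replicate 2. Ptms and Car2 overlapped as well.

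Depth per cell in cluster 5 was near that of G1 cells. Median UMIs were 3438, 9549 and 3590.5 in PBS replicates 1, 2 and 3, and 2429.5 and 4890 in AML replicates 1 and 3. G1 cells of clusters 0 to 4 had 3192, 7800, 3438, 2269 and 4349 in the same order, and G2M cells 6795, 16290, 7279, 2407.5 and 9044.5. The mean ratio of cluster 5 to G1 cells was 1.11 (1.04 to 1.22), above 1 in 5 of 5 libraries (exact sign-change permutation test, two-sided, p = 0.0625, the smallest that 5 libraries allow). To G2M cells the ratio was 0.603 (0.493 to 1.01), below 1 in 4 of 5 libraries (exact p = 0.125), and AML replicate 1 was the exception. For unshared cells the ratio to G1 cells was 1.06 to 1.15 in 4 libraries, and that to G2M cells was 0.569 and 0.739 in PBS replicates 1 and 3 but 1.09 and 0.967 in AML replicates 1 and 3. Against all other cells it was 0.895 (exact p = 0.188), and 0.867 without AML replicate 1. Detected genes followed, with ratios of 1.05 to G1 cells and 0.738 to G2M cells. The mitochondrial share had a ratio of 0.980 to all other cells (exact p = 0.438), 0.902 to G1 cells and 1.04 to G2M cells, and the ribosomal share had a ratio of 1.03 (exact p = 0.188). Doublet scores, computed per library from simulated pairs of cells, had a median of 0.0769 in cluster 5 and 0.0514 in the other cells, and 7.96% of cluster 5 cells were in the top 5% of their library against 4.34% of the others. Without those cells 14 of the 15 leading genes stayed in the leading 15.

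**Figure D3:**
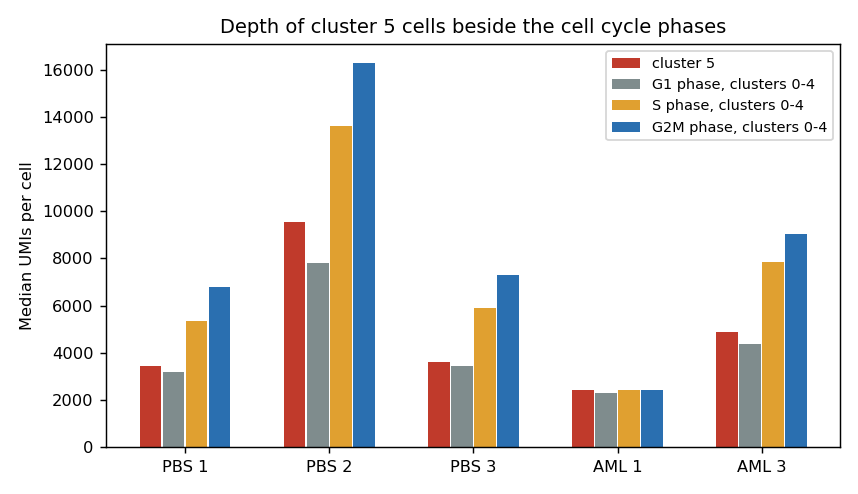
Median UMIs per cell (y axis) in each library (x axis) for cluster 5 (red) and for G1 (grey), S (yellow) and G2M (blue) cells of clusters 0 to 4. Cluster 5 bars stand slightly above the G1 bars in all 5 libraries and, outside AML replicate 1, well below the G2M bars, as in PBS replicate 1 with 3438, 3192 and 6795 UMIs for cluster 5, G1 and G2M.

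Transcripts of very long genes were low in cluster 5. Gene span was taken from the GENCODE vM21 annotation of GRCm38 as the distance from start to end, introns included. Against G1 cells of clusters 0 to 4, the median log2 ratio was near 0 for the 1817 measured genes of 5 to 20 kb (0.03 to 0.08 over the 4 libraries), fell by 0.21 on average for the 601 genes of 100 to 250 kb, by 0.60 for the 147 genes of 250 to 500 kb and by 0.93 for the 44 genes over 500 kb. In the longest group it was -0.90, -0.94 and -0.80 in PBS replicates 1, 2 and 3, -0.55 in AML replicate 1 and -1.07 in AML replicate 3. Of these 44 genes, 39 were below G1 cells in all 4 libraries, where 21.1% of all measured genes were. In unshared cells the medians were -0.89, -0.83, -0.51 and -1.12 in PBS replicates 1 and 3 and AML replicates 1 and 3, and 38 of the 44 were below G1 cells in the 3 libraries kept, where 26.3% of all measured genes were. Immp2l, a mitochondrial peptidase gene of 931.5 kb, held 39.0, 60.3, 33.5 and 43.9 CPM in PBS replicates 1, 2 and 3 and AML replicate 3, against 197, 138, 175 and 192 in their G1 cells. Lrmda, which spans 1036 kb, held 64.9 to 118 CPM against 275 to 421.5, and the stem cell gene Mecom (597 kb) 87.9 to 157 against 226 to 268. Rabgap1l (574 kb) was level, with a log2 ratio of -0.01.

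S and G2M cells of clusters 0 to 4 had another profile over span. Their medians against G1 cells were already -0.27 at 50 to 100 kb in both, where cluster 5 was at -0.06, and reached -0.50 and -0.55 over 500 kb. Cluster 5 therefore lay above G2M cells for genes of 50 to 250 kb (0.16 and 0.13) and below them over 500 kb (-0.43, from -0.33 to -0.51 in the 4 libraries). Inside the cluster, cells called G2M were lower over 500 kb than cells called G1 in all 4 libraries, at -0.98 to -1.45 and -0.45 to -0.83. With cells thinned to 2000 UMIs and compared with all other cells, the median over 500 kb was -0.71, -1.03 and -0.60 in PBS and -0.49 and -0.88 in AML. Malat1, a long noncoding RNA that stays in the nucleus and comes from a short gene, was also low: cluster 5 held 15439 to 22971 CPM in the 4 libraries and 28866 in AML replicate 1, against 31852 to 49545 and 41287 in G1 cells. It was lower than in S and G2M cells too in each of the 5 libraries. Other RNAs of a list of nuclear-retained transcripts were mixed: of 5 measured, Malat1 included, 4 were lower than in G1 cells in all 4 libraries, but against G2M cells 2 were lower and 2 higher, with a median of 0.18.

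**Figure D4:**
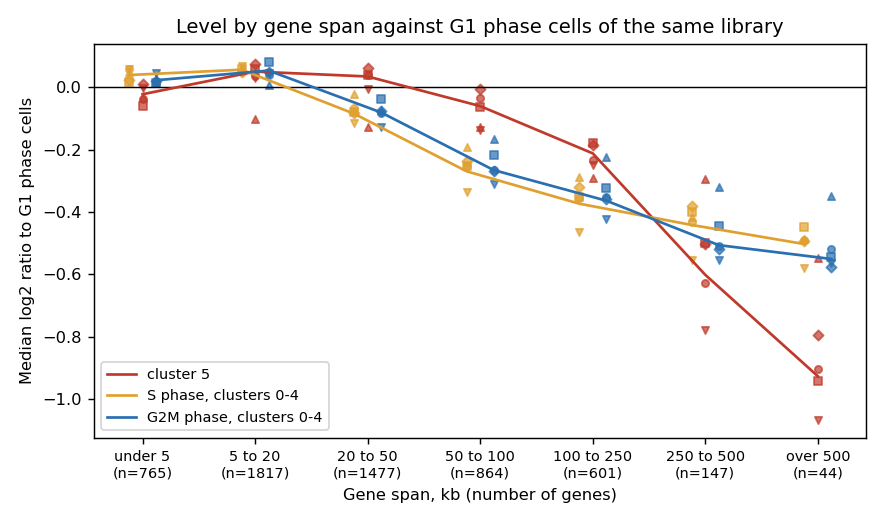
Median log2 ratio of summed CPM + 1 to G1 cells of the same library (y axis) by gene span (x axis, with the number of genes) for cluster 5 (red), S (yellow) and G2M (blue) cells. Lines are means over the 4 libraries with at least 20 cluster 5 cells and symbols are the 5 libraries, and the cluster 5 line stays near 0 up to 50 to 100 kb (-0.06) and ends lowest, at -0.93.

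Over all measured genes the cluster 5 profile was most like that of cluster 0. Pearson's r of log2 mean CPM across 5715 genes, which are not independent replicates, was 0.950 with cluster 0, 0.942 with cluster 1, 0.929 with cluster 2 and 0.901 with cluster 3. It was 0.932 with the G1 cells and 0.928 with the G2M cells of clusters 0 to 4, so the values for both phases lay close together.

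The joint pattern of the leading genes was also looked for in barcodes outside the cell table. These have no cluster number, and whether the clustering used them is not stated. Barcodes that held 1000 genes or more, with no more than 10% of UMIs from mitochondria, numbered 1811, 224 and 1406 in PBS replicates 1, 2 and 3, and 229, 106 and 1113 in AML replicates 1, 2 and 3. The sources used here do not say why they are not in the table. After thinning to 2000 UMIs, 1759, 1383 and 974 remained in PBS replicates 1 and 3 and AML replicate 3. Of those with a Ccnb2 or Cenpa UMI, 30.4%, 32.9% and 25.6% also held a Hist1h2bc UMI (exact intervals 23.3 to 38.2%, 25.2 to 41.2% and 16.8 to 36.1%), and of those with neither, 10.4%, 10.0% and 10.4% did (8.92 to 12.0%, 8.39 to 11.8% and 8.43 to 12.6%). With barcodes shared with another library left out, a step added after seeing the data, 1628, 842 and 547 remained, and the share in AML replicate 3 moved most. Among these, of those with a Ccnb2 or Cenpa UMI, 45 of 142, 30 of 72 and 16 of 41 also held a Hist1h2bc UMI, which is 31.7%, 41.7% and 39.0% (exact intervals 24.1 to 40.0%, 30.2 to 53.9% and 24.2 to 55.5%). Of those with neither, 10.4%, 10.5% and 10.9% did (8.86 to 12.0%, 8.44 to 12.9% and 8.29 to 13.9%), so the intervals do not meet in these 3 libraries either way. In the other cells of the table, outside cluster 5, the same shares were 16.7% against 10.8% in PBS replicate 1, 22.1% against 11.5% in PBS replicate 3 and 23.5% against 12.7% in AML replicate 3, and without shared barcodes 17.9% against 10.9%, 28.1% against 12.7% and 27.6% against 13.9%. In AML replicate 1 they were 17.5% against 15.2% (intervals 12.9 to 22.9% and 12.0 to 18.9%, which overlap). Cluster 5 was taken out of these table cells, whereas no cells like it were taken out of the outside barcodes. The levels of the 2 sets therefore cannot be compared with each other. Cluster 5 itself, whose cells were clustered on such genes, had the other order in PBS replicates 1 (71.4% against 93.1% of 29 cells with neither) and 3 (68.8% against 95% of 20), and 72.0% against 42.9% of 7 in AML replicate 3, with 3 cells that held neither in each of the remaining libraries. Without shared barcodes AML replicate 1 gave 2 of 18 against 9 of 65, PBS replicate 2 kept 3 barcodes and AML replicate 2 kept 14, with 0 of 4 against 0 of 10, and at this number nothing could be told. In PBS replicate 1 the 45 barcodes with both held a Top2a UMI in 6.67% and the 97 with Ccnb2 or Cenpa only in 20.6%, and in AML replicate 3 the shares were 6.25% of 16 and 20% of 25, but in PBS replicate 3 the order was 10.0% and 7.14%.

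**Figure D5:**
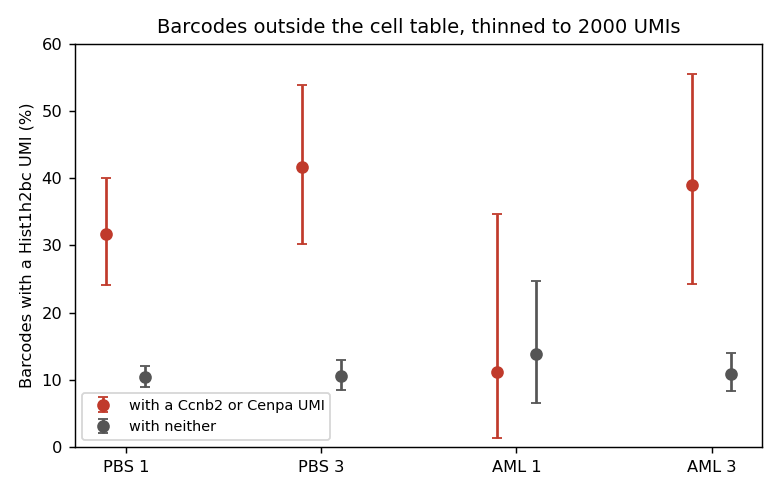
Share of barcodes outside the cell table with a Hist1h2bc UMI (y axis, percent) among those with a Ccnb2 or Cenpa UMI (red) and those with neither (grey), by library (x axis), after thinning to 2000 UMIs and without barcodes shared with another library. Bars are exact 95% intervals, which are separate in PBS replicates 1 and 3 and AML replicate 3 and overlap in AML replicate 1, where 18 barcodes held Ccnb2 or Cenpa.

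Cluster 5 was a smaller share of the cells in both AML libraries than in the 3 PBS libraries. It was 2.19% (1.86 to 2.57%), 2.36% (1.48 to 3.54%) and 2.23% (1.81 to 2.71%) of the table's cells in PBS replicates 1, 2 and 3, and 1.73% (0.898 to 3.01%) and 1.44% (1.09 to 1.86%) in AML replicates 1 and 3. The mean was 2.26% ± 0.0852 (SD, n = 3) in PBS and 1.59% ± 0.206 (n = 2) in AML, a difference of -0.673 percentage points (exact two-sided permutation test, p = 0.1, the smallest that 3 against 2 libraries allow). The design cannot reach 0.05. Without the barcodes found in any other matrix the difference was -0.864 points between 2 PBS and 2 AML libraries (exact p = 0.333, the smallest possible). Set against cluster 5 and the G2M cells of clusters 0 to 4 together, the share was 11.4% ± 0.786 in PBS and 4.60% ± 1.85 in AML (exact p = 0.1), a denominator chosen after seeing the data.

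Gene expression in cluster 5 was compared between AML and PBS on the summed UMIs of each library with edgeR's quasi-likelihood test. Its prior df was 191.4 and its residual df 3, so its p-values rest mostly on a variance pooled over genes. Of 4415 genes tested, 1 rose and 1 fell with a Benjamini-Hochberg adjusted p under 0.05, a share of 0.0453%, and 183 had an unadjusted p under 0.05. DESeq2 and limma-voom made 0 calls, and 52 and 217 genes had an unadjusted p under 0.05 in them. When the barcodes found in any other matrix were left out, edgeR made 0 calls among 3711 genes in 4 libraries, with 107 at an unadjusted p under 0.05, and Olfr1369-ps1 was below the count filter. Cd52, a surface glycoprotein of lymphocytes and progenitors, rose by a log2 fold change of 1.60 ± 0.34 (SE, adjusted p = 0.0118). Its TMM-normalized CPM were 134, 37.9 and 150 in PBS and 314 and 362 in AML, and the groups do not overlap. Its values without 1 PBS library were 1.29 to 1.85 with adjusted p of 0.184 to 0.999, and without AML replicate 3 it had 1.33 (adjusted p = 0.469). Without the barcodes found in any other matrix it had 0.95 and was not called. In the other cells of the libraries its log2 fold change was 0.47 (adjusted p = 0.553). The gene that fell, Olfr1369-ps1, an olfactory receptor pseudogene, had a log2 fold change of -3.57 ± 0.70 (adjusted p = 0.00335). Its CPM were 30.6, 141 and 229 in PBS and 31.4 and 7.47 in AML, from 16, 26, 76, 1 and 2 UMIs, so the groups overlap. It was not called without PBS replicate 2 or AML replicate 3, nor by DESeq2 or limma-voom. Without PBS replicate 3, which holds 76 of its UMIs, and with thinned cells it was not among the genes tested, and 0 genes were called.

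Other genes with low p were not called. Mpo, the myeloperoxidase gene of granulocyte precursors, had 51.7, 37.9 and 36.1 CPM in PBS and 314 and 93.3 in AML (log2 1.58 ± 0.43, adjusted p = 0.287). Isg15, an interferon-induced ubiquitin-like protein, had 124, 108 and 150 in PBS and 189 and 343 in AML (1.23 ± 0.34, adjusted p = 0.287). Irf7, a transcription factor of the interferon response, had 76.6, 21.7 and 63.1 in PBS and 0 and 194 in AML (1.39 ± 0.38, adjusted p = 0.287), so its AML value rests on replicate 3. Without AML replicate 1 both Isg15 (log2 1.40, adjusted p = 0.0493) and Irf7 (1.68, adjusted p = 0.00929) passed, but AML is then 1 library, which is assumed to vary like the PBS libraries, and without AML replicate 3 neither did. Mpo passed without AML replicate 3 (2.73, adjusted p = 0.0313), which leaves 1 AML library of 12 cells, and had 1.09 without AML replicate 1. Nfkb1, of the NF-kB family, had 0.41 ± 0.40 (adjusted p = 0.998). Irf8, an interferon-responsive factor of myeloid cells that the study also followed, summed to 1, 1 and 3 UMIs in the PBS libraries and to 0 and 9 in AML. Nfkb2 had at most 3 UMIs a library, and the chemokine genes Cxcl10 and Cxcl9 at most 2 and 1, so these 4 genes were below the count filter. The study chose these genes on these samples, so they are not independent evidence of a direction.

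By list, few genes passed the test between AML and PBS in cluster 5. The class mix also differed between the groups, and neither HSC nor MPP-3 overlapped. In cluster 5, HSC made up 26, 36.4 and 35.7% in PBS and 8.33 and 17.5% in AML. MPP-3 made up 18.7, 0 and 4.08% in PBS and 25.0 and 26.3% in AML. AML replicate 1 counts here with 1 HSC and 3 MPP-3 cells of 12. The other cells shifted alike, with HSC at 20.4, 23.6 and 21.6% in PBS and 3.23 and 13.6% in AML. Their MPP-3 shares were 11.5, 4.50 and 9.72% in PBS and 33.0 and 22.2% in AML. The part of this mix in the values was not tested. Of 25 interferon-stimulated genes, 10 were tested and 0 passed, all 10 had a log2 fold change above 0 with a median of 0.71, and in 4 both AML libraries were above all PBS libraries, a separation that 9.6% of all tested genes showed. The median over all tested genes was -0.03, and the median of the interferon list in the other cells of the same libraries was 0.56. Of 54 G2M genes, 32 were tested, 0 passed and the median was -0.0024. Of the 15 leading genes, all were tested, 0 passed and 14 had a log2 fold change below 0 with a median of -0.39. In 7 of the 15 both AML libraries were below all PBS libraries, where 14.3% of all tested genes were, and the median of the 15 in the other cells was -0.55. Ccnb2 had -0.07 ± 0.34, Cenpa -0.20 ± 0.34 and Hist1h2bc -0.42 ± 0.34, each at an adjusted p of 0.998 in edgeR. Of 12 lymphoid progenitor markers 9 were tested, Cd52 rose, and all 9 had a log2 fold change above 0 with a median of 0.54, against -0.12 in the other cells. Of 21 immediate early genes 11 were tested, 0 passed and none had a log2 fold change above 0, with a median of -0.63, against -0.96 in the other cells.

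Whether the AML effect in cluster 5 differed from that in all other cells was tested with an edgeR interaction term, with a term for each library. Of 9546 genes, 1 passed (0.0105%) and 392 had an unadjusted p under 0.05. limma-voom made 0 calls, with 271 genes at an unadjusted p under 0.05. The gene that passed was Olfr1369-ps1, with a difference of -3.37 ± 0.62 (SE, adjusted p = 0.000581), and without PBS replicate 3 it had -2.91 (adjusted p = 0.124). Without the barcodes found in any other matrix it had -3.50 (adjusted p = 0.413), and 0 of 8200 genes passed, with 216 at an unadjusted p under 0.05. Its AML effect in the other cells was 0.38 (adjusted p = 0.840). Ddx17, an RNA helicase, was next with -2.42 ± 0.57 (adjusted p = 0.0989), from 37, 12, 30, 0 and 5 UMIs, and then Hbb-bt, an adult beta globin, with 1.64 ± 0.41 (adjusted p = 0.216). Ddx17 had -2.25 to -2.86 in the alternatives other than the one without AML replicate 3, where the AML library left has 0 of its UMIs and the fitted value is no bound, and it passed with clusters 0 to 2 as other cells (-2.50, adjusted p = 0.042). Hbb-bt ran from 0.23, in unshared cells, to 2.11. Cd52 had a difference of 0.92 (adjusted p = 0.438), so its AML effect in cluster 5 was not shown to differ from that in the other cells.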

How the data were processed

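Single HSPCs were captured and barcoded with Chromium GEM V3 chemistry (10x Genomics). The authors deposited raw UMI counts per gene and barcode, and a cell table with cluster numbers, classes, module and cell cycle scores (score units), and the percent of mitochondrial and ribosomal UMIs. The submitters' processing notes name Cell Ranger 7.0.1, Seurat 4.3.0, R 4.2.2 and GRCm38/mm10. The cluster numbers equal a column of the table named for a shared nearest neighbour graph at resolution 0.3, and the table also holds Harmony coordinates. The sources used here give no further clustering settings and do not say why barcodes were left out.

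Counts were summed by library and cell group and divided by the sum to give CPM, with a pseudocount of 1 on the log2 scale. Cells of 1 library are not replicates, so AML and PBS were compared on library sums with at least 5 cells. edgeR 4.0.16 (quasi-likelihood test, TMM, filterByExpr, residual df 3 and prior df 191.4 for AML against PBS) was run in R 4.3.3 with Benjamini-Hochberg adjustment at 0.05. DESeq2 1.42.0 and limma 3.58.1 were alternatives. Scripts were tested on simulated data. Shares and medians were compared with exact two-sided permutation tests over libraries. Thinning drew 2000 UMIs per cell and left out 3 cluster 5 cells and 202 others. Doublet scores came from scanpy 1.11.5, and no cell was removed by them in the main results. Cell cycle lists were those of Seurat 5.3.0. Gene spans came from GENCODE vM21, and promoter windows from RefSeq.

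Members and gene lists were chosen with earlier results of these data known. Named genes were the 15 highest and 10 lowest by mean log2 ratio, and, for AML against PBS, the called genes, those with the lowest p and the study's own genes. Depth per library in the table ran from 1945659 to 32123508 UMIs. Intervals cover counting error only. A sample of 22 or 12 cells limits PBS replicate 2 and AML replicate 1.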

Additional observations from a re-analysis of the deposited data

Results flagged for a closer look

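The AML effect on Olfr1369-ps1, an olfactory receptor pseudogene, differed between cluster 5 and all other cells of the same libraries by -3.37 on the log2 scale (edgeR interaction term, SE 0.62, adjusted p = 0.000581). Without cells whose barcode also occurs in any other matrix it was -3.50 (adjusted p = 0.413). It rests on 16, 26 and 76 UMIs in PBS replicates 1, 2 and 3 and on 1 and 2 UMIs in AML replicates 1 and 3.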

How the results depend on the processing

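AML against PBS in cluster 5 gave 2 calls in edgeR, 0 with DESeq2, limma-voom or thinned cells, 5 with at least 20 cells a library, 1 with shared barcodes left out (an alternative chosen after seeing the data), and 0 to 11 when a library was left out (5 without AML replicate 1, 11 without AML replicate 3, 0 without PBS replicate 2 or 3); with 1 AML library left, it was assumed to vary like the PBS libraries. Without filter there were 3. Irf7 ran from -7.02 (without AML replicate 3) to 1.73 (without PBS replicate 1). The replicate block also gave 2 calls, but Cd52 had 1.25 and was lost. Same-numbered libraries had correlations of -0.0185 and -0.0691 in their deviations from the group means. With 2 AML libraries these deviations mirror each other, so the check cannot tell whether same-numbered libraries are paired. The interaction gave 1 call, 0 with limma-voom, 2 with clusters 0 to 2 as other cells, and 0 to 80 when a library was left out (80 without AML replicate 3). Without barcodes found in any other matrix, also chosen after seeing the data, AML against PBS and the interaction gave 0 calls each, and 7 of the 15 highest and 5 of the 10 lowest genes stayed. Causes were not tested. Against G1 cells the ratios of UMIs (1.11) and genes (1.05) turned above 1, and the mitochondrial ratio did so against S (1.05) and G2M (1.04) cells; comparisons with phase cells were also chosen after seeing the data. Of the 15 highest genes 8 stayed after thinning, and of the 10 lowest 2 with clusters 0 to 2 as other cells. Of 325 ratios of leading genes 4 reversed, Sertad1 (-0.13, thinned, and -0.20 without barcodes of any other matrix), Igkc (0.22, against G2M cells) and Iglc2 (0.017, against G1 cells), and 60 moved. The share of cells kept its direction in 8 of 8 alternatives. Depth limits the 12 cells of AML replicate 1, where 31768 UMIs were summed.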
